A study of Mus musculus with 51 samples.

Results

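5hmC in the femur of mice without Tet1 and Tet2 in the limb mesenchyme was compared with 5hmC in control femurs, genome-wide, by gene class and by location. The data are 6 hMeDIP-seq libraries of the 51 samples of the study, 3 of mice labelled as wild type for Tet (Ctrl) and 3 of mice labelled as double knockout (Tet1/2 cKO), and all 6 were used. The libraries of a group had been pooled before peaks were called, so that the members are 2 peak lists, with 259326 peaks in Ctrl and 146626 peaks in Tet1/2 cKO. There is no replicate of a list, and a difference between the lists therefore has no replicate error and no p-value.

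All Ctrl and Tet1/2 cKO mice were 11 week old C57BL/6 animals on a standard rodent diet, and the bone was femur with flushed marrow and without periosteum. Ctrl mice carried Prrx1-Cre, and Tet1/2 cKO mice carried Prrx1-Cre with Tet1 fl/fl and Tet2 fl/fl. Femurs of Tet1 cKO mice (Prrx1-Cre with Tet1 fl/fl) and Tet2 cKO mice (Prrx1-Cre with Tet2 fl/fl) of the same age were used only in the RNA test. The study as a whole asked how vitamin C (VitC) acts on 5hmC and the osteogenic program, with Gulo knockout mice on VitC (VitC+) or after its withdrawal (VitC+/-), Tet knockout mice and MC3T3-E1 cells. Peak lists of the Gulo femurs, from 20 week old mice, were used here for comparison. Prrx1-Cre is active in limb bud mesenchyme, which gives rise to osteoblasts, osteocytes and chondrocytes, so that blood cells, osteoclasts and endothelial cells in the same bone keep both genes. As the bone was measured in bulk, fewer cells of a type and less 5hmC or RNA per cell cannot be told apart. For 1 of the Ctrl libraries the labels do not name the antibody.

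TET enzymes oxidise 5-methylcytosine to 5-hydroxymethylcytosine (5hmC), with iron, 2-oxoglutarate and VitC, and 5hmC is both a step towards demethylation and a lasting mark of gene bodies and enhancers. Tet3, the remaining family member, was not deleted in these mice. In hMeDIP-seq, DNA fragments with 5hmC are pulled down by an antibody and sequenced, and a peak is a stretch where more fragments lie than the local background predicts. The assay is relative, and a fall of the same size at every locus would not be seen in it.

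The RNA of the targeted genes was read first, in 6 RNA-seq libraries of the same genotypes. Tet1 (chromosome 10, 62804570 to 62908996 in mm10) had normalised counts of 374, 420 and 435 in Ctrl and of 485, 415 and 442 in Tet1/2 cKO. Tet2 (chromosome 3, 133463679 to 133545139) had 2236, 2512 and 2251 in Ctrl and 2970, 1851 and 2351 in Tet1/2 cKO. Tet3 (chromosome 6, 83362373 to 83459084) had 3788, 4653 and 3434 in Ctrl and 4477, 3657 and 4069 in Tet1/2 cKO. The groups overlapped for all 3 genes, with log2 fold changes of 0.13 for Tet1, 0.01 for Tet2 and 0.05 for Tet3. In the adjusted limma test, p was 0.876 for Tet1, 0.989 for Tet2 and 0.936 for Tet3. The counts cover the whole gene and a floxed exon was not counted separately, so these values do not check the deletion, and "Tet1/2 cKO" is used here as the label of the libraries.

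A set of 7 regions shows what the lists hold, each with the 200 bases around its summit (mm10, plus strand, RefSeq assembly) and with CpG dinucleotides, the usual site of 5hmC, in capitals. The first 3 are among the Ctrl peaks of highest fold without a Tet1/2 cKO peak, the next 3 are among the peaks of highest fold in both lists, and the last is among the Tet1/2 cKO peaks of highest fold without a Ctrl peak.
Nt5c2 intron, Ctrl list only, chr19:46913731-46913930: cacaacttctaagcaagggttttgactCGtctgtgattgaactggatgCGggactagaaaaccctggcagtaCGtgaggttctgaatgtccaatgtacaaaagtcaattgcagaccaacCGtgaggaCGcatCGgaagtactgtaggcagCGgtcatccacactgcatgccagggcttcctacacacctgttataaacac
Ccdc126 intron, Ctrl list only, chr6:49332173-49332372: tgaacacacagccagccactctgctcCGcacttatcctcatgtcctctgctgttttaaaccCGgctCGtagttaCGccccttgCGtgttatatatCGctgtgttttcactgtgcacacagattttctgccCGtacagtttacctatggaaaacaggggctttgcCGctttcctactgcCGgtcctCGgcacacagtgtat
Upstream of Dnmbp, Ctrl list only, chr19:43941165-43941364: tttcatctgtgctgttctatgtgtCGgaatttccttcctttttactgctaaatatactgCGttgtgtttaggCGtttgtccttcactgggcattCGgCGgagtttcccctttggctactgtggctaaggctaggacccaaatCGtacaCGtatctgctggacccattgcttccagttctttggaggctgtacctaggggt
Smad3 intron, both lists, chr9:63715576-63715775: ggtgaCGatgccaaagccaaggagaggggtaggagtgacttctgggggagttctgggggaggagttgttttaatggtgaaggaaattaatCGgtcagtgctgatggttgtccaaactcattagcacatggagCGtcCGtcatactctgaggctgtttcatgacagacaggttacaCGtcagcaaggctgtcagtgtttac
Etv6 intron, both lists, chr6:134207503-134207702: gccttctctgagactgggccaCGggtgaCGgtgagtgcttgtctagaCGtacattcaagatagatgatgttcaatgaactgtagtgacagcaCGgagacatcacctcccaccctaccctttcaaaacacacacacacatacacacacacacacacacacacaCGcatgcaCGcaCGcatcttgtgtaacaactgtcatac
Dlgap2 intron, both lists, chr8:14306832-14307031: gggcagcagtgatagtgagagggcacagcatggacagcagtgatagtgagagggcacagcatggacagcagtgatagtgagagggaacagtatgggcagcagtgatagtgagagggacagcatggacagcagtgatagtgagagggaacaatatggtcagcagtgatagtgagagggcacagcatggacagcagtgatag
Beside Fcgr3, Tet1/2 cKO list only, chr1:171066735-171066934: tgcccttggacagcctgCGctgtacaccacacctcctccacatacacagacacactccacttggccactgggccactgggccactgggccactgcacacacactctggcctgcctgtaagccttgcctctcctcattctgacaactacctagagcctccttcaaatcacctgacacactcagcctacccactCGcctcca

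The Ctrl peak in Nt5c2, a gene of a cytosolic nucleotidase, ran over 1301 bp at chr19:46912935-46914235, with a fold of 10.6 over the local background and 131 fragments at the summit. It had the highest fold among the Ctrl peaks that no Tet1/2 cKO peak overlapped. The peak in Ccdc126 (chr6:49331897-49333295) had 121 fragments and the peak 1074 bp upstream of Dnmbp (chr19:43940531-43941914), which encodes a scaffold protein of the actin cytoskeleton, had 115 fragments. The 3 summits had 9, 11 and 7 CpG in 300 bp, in this order, and all 3 peaks were also found in Gulo femurs, with VitC and after its withdrawal. Of the 6 Ctrl-only peaks of highest fold, 2 were on chromosome 19 and 1 was on chromosome 6, chromosomes with a raised background in the Tet1/2 cKO list that are described with the chromosomes.

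Among the peaks in both lists, the one in an intron of Smad3, a signal transducer of TGF-beta, spanned 12194 bp at chr9:63714380-63726573. It had 237 fragments in Ctrl and 168 in Tet1/2 cKO. The peak in an intron of Etv6, a transcription factor of blood formation, had 230 fragments in Ctrl and 198 in Tet1/2 cKO, at chr6:134203459-134212660. The peak in Dlgap2 (chr8:14306709-14307489), a gene of postsynaptic scaffolds, had 1639 fragments in Ctrl and 1997 in Tet1/2 cKO, over a stretch in which the same unit recurs, without a CpG in 300 bp and with a local background of 82.0 in Ctrl, against 10.9 for most of the genome. Both lists thus hold CpG-bearing peaks beside peaks of repeated DNA without CpG. The Tet1/2 cKO peak 1900 bp upstream of Fcgr3, an Fc receptor gene of myeloid cells, had a fold of 8.58 and 121 fragments at chr1:171066242-171067256. It was in neither list of Gulo femurs. The other 5 of the 6 Tet1/2 cKO-only peaks of highest fold lay in DNA that was over 75% repeats, and 1 of these 5 was in the lists of Gulo femurs. Such DNA was not particular to that list. The Ctrl-only peak at chr5:85018764-85019065, with a fold of 9.92, lay in 85.3% repeats with 1 CpG in 300 bp. Shared peaks in Snx9, in A2m and on the X chromosome were 94.7% to 100% repeats. The rest of the Ctrl-only and shared peaks of highest fold were at 21.7% or less.

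The lists were called against backgrounds of different depth. The fold and p-value of a peak together give its pileup and local background, and the pileups were whole multiples of a single step, 0.952 in Ctrl and 0.320 in Tet1/2 cKO, which is the weight of 1 fragment. The genome background was 10.9 in Ctrl and 3.63 in Tet1/2 cKO. In fragments, the mean coverage of the genome by the immunoprecipitated DNA was nearly equal, 11.4 in Ctrl and 11.3 in Tet1/2 cKO. The weakest peak had 21 fragments in Ctrl and 32 in Tet1/2 cKO, the median peak had 44 and 59, and the peak at the 90th percentile had 81 and 97. The Tet1/2 cKO list thus starts at higher peaks, although the coverage by immunoprecipitated DNA was nearly equal, and numbers of fragments are used here beside the lists as deposited.

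As deposited, the Tet1/2 cKO list was shorter and narrower. Peaks covered 273 Mb in Ctrl and 123 Mb in Tet1/2 cKO, a ratio of 0.450, and the median width was 682 bp and 586 bp. Of the Ctrl peaks on chromosomes 1 to 19, X and Y, 46.7% (121046 of 259296) were overlapped by a Tet1/2 cKO peak, with an exact 95% binomial interval of 46.5 to 46.9 that covers counting error only. Of the Tet1/2 cKO peaks, 96.8% (141883 of 146605) were overlapped by a Ctrl peak, and 95.8% of their bases lay in Ctrl peaks. The Tet1/2 cKO list is close to a subset of the Ctrl list. With the Ctrl peaks rescaled to the background of the Tet1/2 cKO list, 54.2% of them were overlapped and the ratio of covered length was 0.488. Rescaling dropped Ctrl peaks whose summit would not pass at that background and left the ends of the others as deposited. It therefore does not correct the width of peaks for the background.

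Stronger Ctrl peaks were found again more often. It was 8.10% for Ctrl peaks of up to 30 fragments, 19.5% at 31 to 40, 42.7% at 41 to 50 and 66.8% at 51 to 60. It was 83.6% at 61 to 70 fragments, 92.6% at 71 to 80, 97.7% at 81 to 100 and 99.6% over 100 and up to 120. Weak Ctrl peaks were thus mostly absent from the Tet1/2 cKO list and strong ones were mostly present. Of the 11375 Ctrl peaks with at least 100 fragments, 47 had no Tet1/2 cKO peak. In the other direction, the share was 89.8% for Tet1/2 cKO peaks of up to 40 fragments and 99.5% for those with at least 60.

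**Figure D1:**
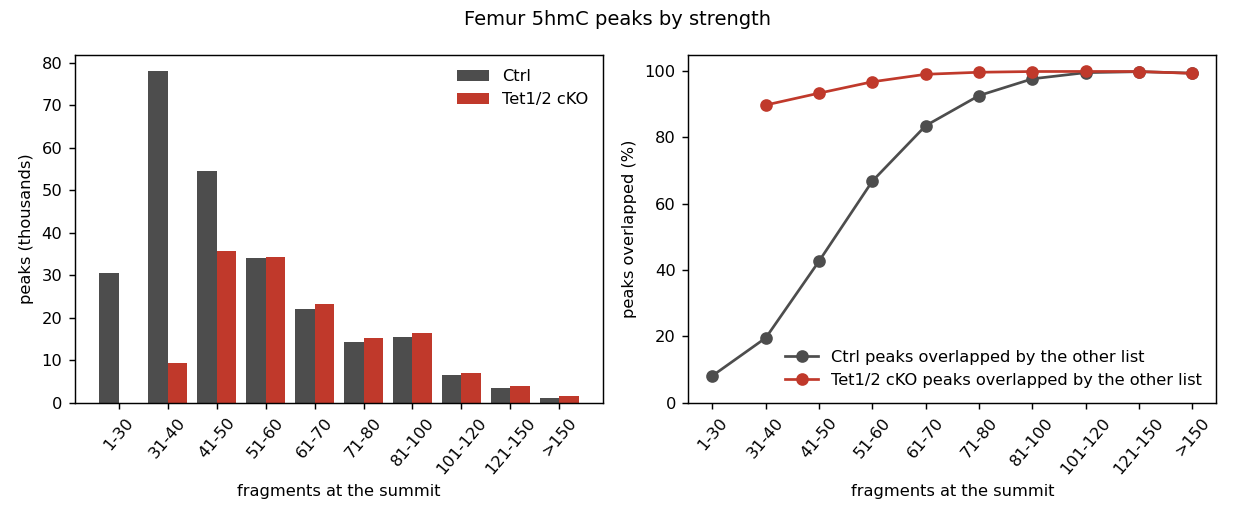
Left, the number of peaks (in units of 1000) of the Ctrl and Tet1/2 cKO lists in 10 classes of fragments at the summit. Right, the share of the peaks of a class (%) overlapped by the other list, which climbs from 8.10% to over 99% in Ctrl and starts at 89.8% in Tet1/2 cKO, where no peak has fewer than 32 fragments.

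The lists of the Gulo femurs, from 20 week old mice, are a pair of lists with nearly equal backgrounds, 5.34 with VitC and 5.33 after its withdrawal. In fragments, their mean coverage by immunoprecipitated DNA was less equal, 8.34 with VitC and 7.17 after its withdrawal. A VitC+/- peak overlapped 77.8% of the VitC+ peaks, and 95.9% of those with at least 60 fragments. For the Ctrl list, the share at 60 fragments or more was 91.3%. These shares are at unlike cutoffs, as the weakest peak had 17 fragments in VitC+/- and 32 in Tet1/2 cKO, and coverage differed too. Ctrl peaks that lacked a Tet1/2 cKO peak were also rarer in the Gulo femurs, as 43.2% of them overlapped a VitC+ peak, against 62.7% of the Ctrl peaks with a Tet1/2 cKO peak. Their median strength was lower too, 37 against 59 fragments. Among peaks of at least 60 fragments, the shares in the VitC+ list were 64.5% for the 5677 Ctrl peaks without and 72.7% for those with a Tet1/2 cKO peak.

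To compare strength at the same places, the peaks of both lists were merged into 262894 loci, and each locus was given the highest number of fragments that each list has there. In loci with peaks of both lists, Tet1/2 cKO had 1.17 peaks for each Ctrl peak, so peaks were more often split. At least 60 fragments in either list were found at 80085 loci, and 92.4% of these had a peak in both. The number of loci with at least 60 fragments was 64825 in Ctrl and 61343 in Tet1/2 cKO. Of the 80085 loci, 5698 had no Tet1/2 cKO peak and 350 had no Ctrl peak. Where both lists had a peak, the median log2 ratio of Tet1/2 cKO to Ctrl fragments was 0.02, with 80% of the loci between -0.46 and 0.51 (10th and 90th percentile). Among these loci with a peak in both lists, at least 2 times fewer fragments were seen at 167 and at least 2 times more at 462. The weakest Tet1/2 cKO peak had 32 fragments, so a Ctrl locus of 60 that fell that far was not counted. At loci of 60 to 79 fragments the numbers were 24 and 255, and at 80 or more they were 143 and 207. The direction of this difference can therefore not be read from the counts. Strong loci with a peak in both lists thus had like numbers of fragments in the pooled libraries of both groups. Covered length differed there too, with 135 Mb in Ctrl and 82.1 Mb in Tet1/2 cKO in peaks of at least 60 fragments, a ratio of 0.606, as peaks of the same strength were narrower in Tet1/2 cKO. Over 100 and up to 120 fragments, the median width was 2465 bp in Ctrl and 1382 bp in Tet1/2 cKO. Peak ends were set at unlike cutoffs, as the weakest peak had 21 fragments in Ctrl and 32 in Tet1/2 cKO. The part of these cutoffs in the widths and covered lengths was not tested.

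5hmC lay mostly in introns in both groups. Introns held 62.8% of the bases covered in Ctrl and 66.8% in Tet1/2 cKO, against 34.9% of the genome. Exons held 4.47% in Ctrl, 3.71% in Tet1/2 cKO and 2.42% of the genome, and promoters (1 kb on each side of a transcription start site, TSS) held 1.68%, 1.95% and 1.52%. DNA more than 30 kb from genes held 15.6% in Ctrl and 13.9% in Tet1/2 cKO, against 43.9% of the genome. The order of the places was the same in both lists, with exons and intergenic DNA taking a smaller share in Tet1/2 cKO and introns a larger one.

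By number of strong loci, exons stood apart from the other places. Loci with at least 60 fragments in exons numbered 3970 in Ctrl and 2908 in Tet1/2 cKO, a ratio of 0.73, and 13.1% of the exon loci had no Tet1/2 cKO peak. In introns there were 41151 and 38398, a ratio of 0.93. Within 30 kb of a gene there were 9058 and 9083, and in distal DNA 9032 and 9188, ratios of 1.00 and 1.02. Promoters had 1614 strong loci in Ctrl and 1766 in Tet1/2 cKO, a ratio of 1.09. The median log2 ratio of fragments was -0.13 in exons, 0.01 in introns and 0.12 in promoters. Single loci spread more widely, from -0.57 to 0.42 in exons and from -0.40 to 0.61 in promoters (10th and 90th percentile), and a difference between places was not tested.

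Around the TSS of 21911 protein-coding genes, both groups had a profile with a dip over the start and a maximum downstream. In the first 500 bp of the gene, 5.08% of the bases lay in peaks in Ctrl and 2.36% in Tet1/2 cKO. From 1500 to 2000 bp, the shares were 24.2% and 13.2%. Strong loci per 100 genes were nearly equal at the same distances, with 3.81 in Ctrl and 3.97 in Tet1/2 cKO from 1500 to 2000 bp, and with 0.602 and 0.630 in the first 500 bp. The shape of the profile was shared, and the covered length was lower in Tet1/2 cKO at all distances.

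**Figure D2:**
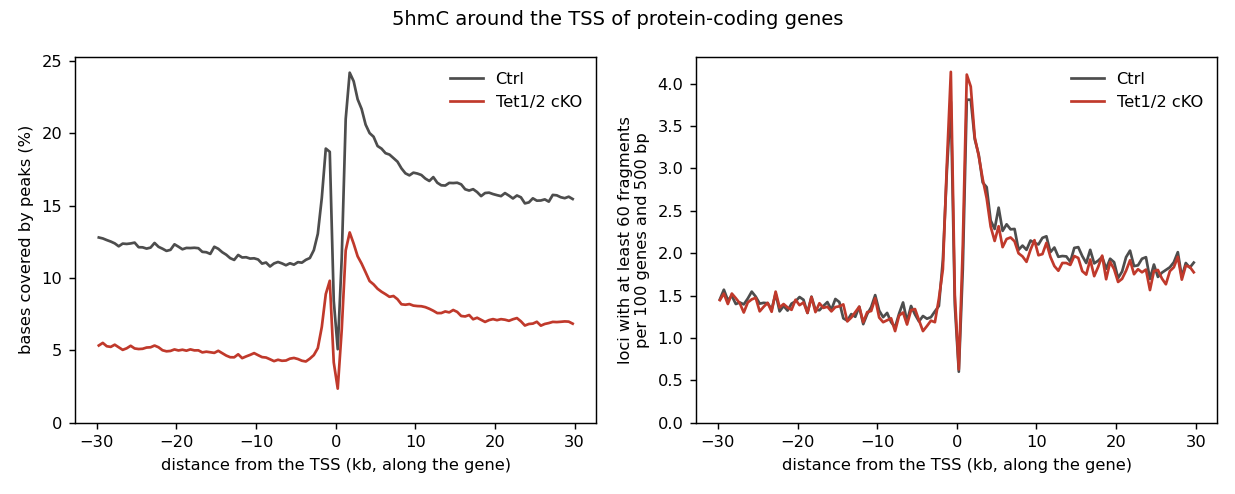
Left, the share of bases covered by peaks (%) in bins of 500 bp within 30 kb of the TSS of protein-coding genes. Right, the number of loci with at least 60 fragments per 100 genes in each bin, where the lines of Ctrl and Tet1/2 cKO lie close to each other, with a dip at the TSS to 0.602 in Ctrl and 0.630 in Tet1/2 cKO.

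The ratio of the groups changed with CpG content. CpG were counted in the 300 bp around the summit. At loci without CpG, the median log2 ratio of Tet1/2 cKO to Ctrl fragments was 0.45, and it was 0.40 with 1 CpG, 0.25 with 2, 0.13 with 3 and 0.02 with 4 or 5. It was -0.05 with 6 to 8 CpG, -0.11 with 9 to 12 and -0.15 with 13 or more. Fragments were higher in Tet1/2 cKO than in Ctrl at CpG-poor loci and lower at CpG-dense loci. By number of strong loci, the ratio was 2.15 without CpG, with 1129 in Ctrl and 2426 in Tet1/2 cKO, and highest with 1 CpG, at 2.31, with 933 and 2154. It was 0.85 at 6 to 8 CpG, with 25920 and 21993, and 0.77 at 13 or more, with 1204 and 932. In Gulo femurs, the median log2 ratio of VitC+/- to VitC+ ran from 0.38 without CpG to -0.65 at 9 to 12 CpG, over 20617 and 1017 loci. It was -0.67 at 13 or more, but over 24 loci there, against 1308 in the femurs compared here. The Gulo ratios were not corrected for coverage, which was 8.34 in VitC+ and 7.17 in VitC+/-, so their level and sign cannot be set beside those of Tet1/2 cKO to Ctrl. The median was lower in each denser class in both pairs of lists, and neither trend was tested, as each group had a single list.

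**Figure D3:**
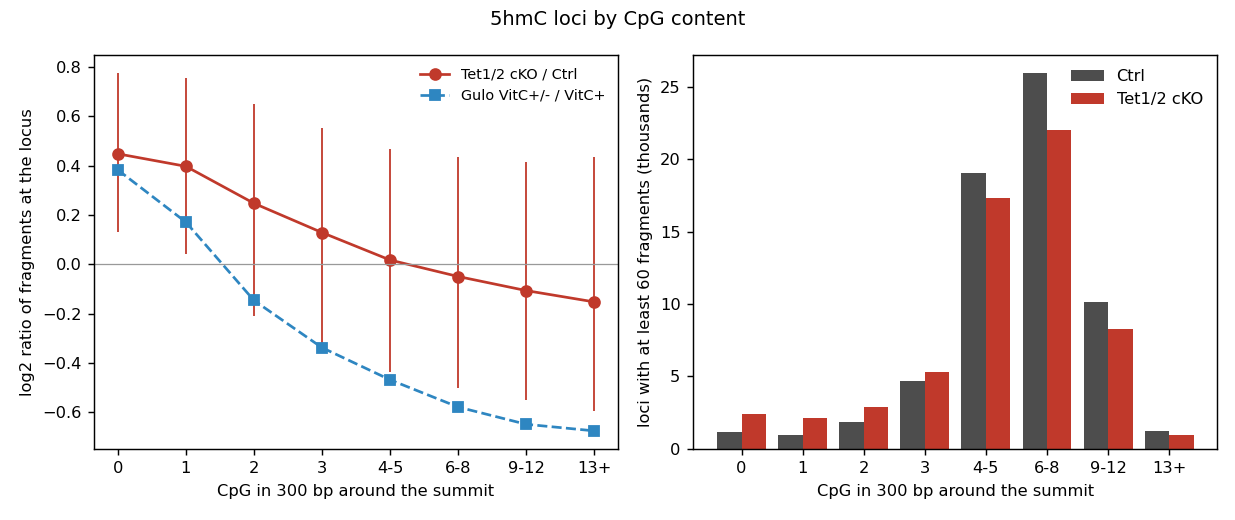
Left, the median log2 ratio of fragments at a locus against the number of CpG in 300 bp, for Tet1/2 cKO against Ctrl (circles, with lines from the 10th to the 90th percentile of the loci) and for VitC+/- against VitC+ (squares). Right, the number of loci with at least 60 fragments (in units of 1000) in both groups, with Tet1/2 cKO above Ctrl up to 3 CpG and below it from 4 CpG on.

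Peaks without CpG were few. They were 2.69% of the Ctrl peaks and 4.18% of the Tet1/2 cKO peaks, while 19.4% of all 300 bp windows of the genome have no CpG. Runs of 10 CA units (CACACACACACACACACACA, or TGTGTGTGTGTGTGTGTGTG on the other strand) were in 2.89% of the genome windows, 4.78% of the Ctrl peaks and 5.20% of the Tet1/2 cKO peaks. Without these repeats the trend with CpG ran from 0.45 to -0.16. Loci with over 75% repeats had 1834 strong loci in Ctrl and 3063 in Tet1/2 cKO, with a median log2 ratio of 0.35. By GC content the median log2 ratio ran the other way than by CpG, from -0.03 at up to 40% GC to 0.32 at over 60% GC, the latter over 386 loci. Among the classes by CpG, GC content and repeats, loci with 0 or 1 CpG and loci with over 75% repeats had the highest median ratios of Tet1/2 cKO to Ctrl.

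Chromosomes 19, 6, X and Y lay outside the range of the other autosomes. The share of Ctrl peaks overlapped was 38.3% on chromosome 19, 41.7% on chromosome 6 and 27.8% on the X chromosome, and from 44.2% to 50.5% on the other autosomes. In the Tet1/2 cKO list, the local background exceeded the genome background at 75.2% of the peaks on chromosome 19 and 64.2% on chromosome 6, against 31.3% and 31.8% in Ctrl. Without both chromosomes, 47.3% of the Ctrl peaks were overlapped. The X chromosome held few peaks, 1881 in Ctrl and 595 in Tet1/2 cKO, and on the Y chromosome 69.1% of 110 Ctrl peaks were overlapped.

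Near genes, covered length was counted within 30 kb of the TSS and compared as a log2 ratio after adding 1000 bp to both lengths. The median over all genes was -0.92, from a median of 6405 bp in Ctrl to 1978 bp in Tet1/2 cKO. Of 21911 genes, 9840 (44.9%) had a log2 ratio of -1 or less, and 0 genes (0%) had a ratio of 1 or more. Counted as strong loci within 30 kb, 4830 genes (22.0%) had more in Tet1/2 cKO and 5186 genes (23.7%) had fewer. The size of the difference over all genes thus depended on the measure. The lists of genes were read against these shares of all genes.

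Bone60, the bone-selective genes named by the study, had a median log2 ratio of covered length close to that of all genes, which include genes without a Ctrl peak. A larger share of Bone60 than of all genes had more strong loci in Tet1/2 cKO. The median log2 ratio of its 59 genes was -0.88, with the 25th and 75th percentiles of the genes at -1.16 and -0.59, and 23 genes (39%) were at -1 or less. All 59 genes had a shorter covered length in Tet1/2 cKO, which was the case for 17947 of all genes. A Ctrl peak lay near all 59 genes, and near 18221 of the 21911 genes. Genes with a mean RNA count of over 100 and up to 1000 in Ctrl had a median log2 ratio of -1.08, with 56.6% at -1 or less. The values were -1.08 and 57.9% over 1000 and up to 10000, and -0.99 and 48.8% above 10000. Strong loci near Bone60 genes numbered 271 in Ctrl and 286 in Tet1/2 cKO, a ratio of 1.06, against 0.97 near all genes. More strong loci in Tet1/2 cKO were found near 26 of the genes (44.1%), fewer near 16 (27.1%) and an equal number near 17, beside 22.0% and 23.7% of all genes. Among genes whose numbers differed, the share with more in Tet1/2 cKO was 61.9% in Bone60 and 48.2% of all genes. Bone60 was chosen by the study and related there to these same femurs, so it is not independent evidence.

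**Figure D4:**
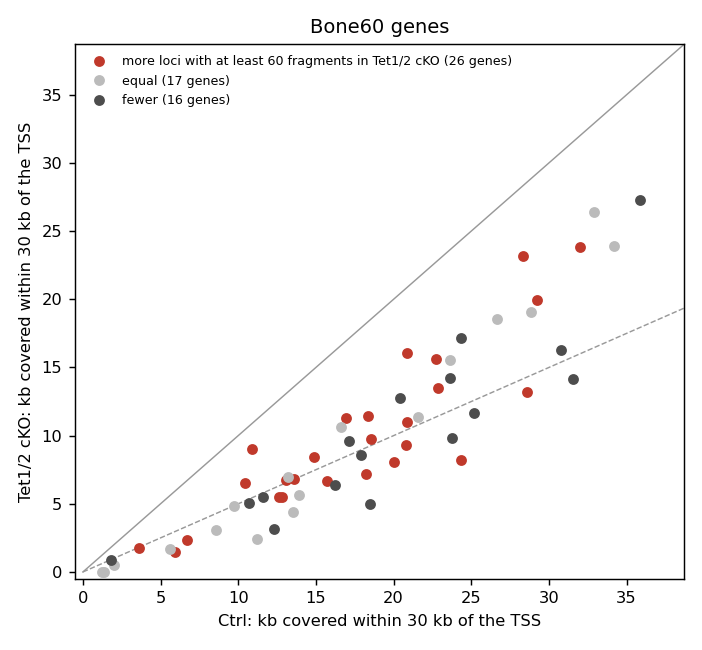
Each point is a Bone60 gene, placed by the length covered by peaks within 30 kb of its TSS in Ctrl and in Tet1/2 cKO (kb). All 59 points lie under the line of equal length, with 29 above and 30 on or under the dashed line of a ratio of 0.5, and the colours mark the 26 genes with more, 17 with equal and 16 with fewer loci of at least 60 fragments in Tet1/2 cKO.

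The Bone60 genes with the highest ratios of covered length included genes of the bone matrix. Near Col1a1, the main chain of type I collagen, 20838 bp were covered in Ctrl and 16088 bp in Tet1/2 cKO, with 6 and 7 strong loci. Near Sparc, which encodes osteonectin, 28324 bp and 23168 bp were covered, with 8 and 12 strong loci. Its peak 3350 bp upstream of the TSS had 84 fragments in Ctrl and 115 in Tet1/2 cKO. Col1a1 and Sparc, the transcription factor gene Sp7 (osterix), the parathyroid hormone receptor gene Pth1r, the cartilage collagen gene Col11a2 and the osteocyte gene Mepe were the 6 Bone60 genes with the highest ratios. Sp7 had the highest log2 ratio, -0.24, from 10894 bp to 9049 bp, and its strongest peak, 7733 bp upstream, had 83 fragments in Ctrl and 110 in Tet1/2 cKO. Alpl, the alkaline phosphatase of mineralising bone, had 28823 bp in Ctrl and 19073 bp in Tet1/2 cKO, with 7 strong loci in each group. Its intronic peak at chr4:137769300-137773386 had 103 fragments in Ctrl and 140 in Tet1/2 cKO.

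At the other end of Bone60 were Lox, Cdh15, Bmp5, Cldn5, Entpd3 and Dkk1. Lox, the lysyl oxidase that cross-links collagen, had 11177 bp in Ctrl and 2384 bp in Tet1/2 cKO, a log2 ratio of -1.85, but 3 strong loci in each. Bmp5, a bone morphogenetic protein, had 12320 bp and 3181 bp, with 3 strong loci and 1. Dkk1, a secreted inhibitor of Wnt signals, had 13520 bp and 4371 bp, with 3 strong loci in each, and the peak 6746 bp downstream of its TSS had 85 fragments in Ctrl and 46 in Tet1/2 cKO. Near Entpd3, an ectonucleotidase gene, 24362 bp and 8205 bp were covered, with 7 and 8 strong loci. The low ratios of covered length in this group of genes therefore went with equal or higher numbers of strong loci near Lox, Dkk1, Entpd3 and Cldn5, and with lower numbers near Bmp5 and Cdh15.

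Outside these extremes, and chosen after their values were seen, are 3 more bone genes. Runx2, the master regulator of osteoblasts, had 23793 bp in Ctrl and 9805 bp in Tet1/2 cKO, a log2 ratio of -1.20, with 7 and 6 strong loci. Spp1, which encodes osteopontin, had 25195 bp and 11666 bp, with 12 and 8 strong loci. Ibsp, the bone sialoprotein gene in the same cluster on chromosome 5, had 22706 bp and 15599 bp, with 5 and 10 strong loci, so neighbours in a cluster differed in opposite directions by that count.

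Lists of the mesenchymal lineage, in which Prrx1-Cre is active, were set beside lists of other cells. The osteoblast and osteocyte list had a median log2 ratio of -0.76, with 6 of 24 genes (25%) at -1 or less, and 113 strong loci in Ctrl and 123 in Tet1/2 cKO. The chondrocyte list had -0.99, with 10 of 20 genes, and 58 and 57 strong loci. Limb and skeletal patterning factors had -1.08, with 15 of 25 genes, and 66 and 59 strong loci. Alx4, a homeobox gene of limb patterning in that list, had 24581 bp in Ctrl and 6456 bp in Tet1/2 cKO, with 5 and 2 strong loci. Collagens and matrix genes had -1.03, with 25 of 47 genes, and 200 and 211 strong loci. The lists counted here as mesenchymal also include Bone60, adipocyte genes and the Wnt and the BMP and TGF-beta pathways, whose genes are not all particular to that lineage. Over all 239 genes of these lists, 49.8% were at -1 or less. Their strong loci, summed over the genes, were 876 in Ctrl and 942 in Tet1/2 cKO.

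Signalling genes were similar. Near 47 genes of the Wnt pathway the median log2 ratio was -1.03, and strong loci were 163 in Ctrl and 185 in Tet1/2 cKO, with more near 19 genes and fewer near 8. Ctnnb1, which encodes beta-catenin, had 33635 bp and 25029 bp, with 10 and 13 strong loci. Near 40 genes of the BMP and TGF-beta pathway the median was -0.84, with 188 and 196 strong loci. The receptor gene Tgfbr2 had 39951 bp in Ctrl and 33126 bp in Tet1/2 cKO, and Acvr1, a BMP receptor gene, had 42316 bp and 35002 bp. Of the 4 genes with the longest Ctrl stretches in each pathway, all but Lgr4, a receptor gene that amplifies Wnt signals, had a log2 ratio above the median of all genes. Lgr4 had 32155 bp and 16089 bp, a log2 ratio of -0.96. Genes picked in the same way from other lists lay above the median of all genes too, such as Rps14 (-0.39) and Igf2r (-0.53), or below it, such as Ndufb9 (-1.23) and Fn1 (-1.40). The trait is thus not particular to these pathways.

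Among blood and vessel cells, whose Tet1 and Tet2 were not targeted, list medians overlapped with those of the mesenchymal lists. The 20 neutrophil genes had a median log2 ratio of -1.26, with 16 at -1 or less, and 39 strong loci in Ctrl and 33 in Tet1/2 cKO. Ltf, the lactoferrin gene of neutrophil granules, had 23801 bp and 5981 bp, with 8 and 3 strong loci. The B cell list had -0.98, with 37 and 33 strong loci, and Ebf1, a factor that commits cells to the B lineage, had 23748 bp and 8086 bp, with 9 and 5. T and NK cell genes had -1.21, with 40 and 45 strong loci, and osteoclast genes had -1.06, with 28 and 31. Over all 126 haematopoietic genes, 58.7% were at -1 or less, with 294 strong loci in each group when summed over the genes. The 20 endothelial genes had -0.94, with 41 and 46. The medians of the haematopoietic and endothelial lists ran from -1.26 for neutrophils to -0.89 for erythroid cells, and those of the mesenchymal lists from -1.16 for adipocytes to -0.76 for osteoblasts and osteocytes.

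Skeletal muscle and adipocyte genes had the highest ratios of strong loci, 1.35 and 1.24, among the lists of cells, though other lists had similar shares of genes with more. Near 21 muscle genes there were 37 in Ctrl and 50 in Tet1/2 cKO, with more near 11 genes (52.4%) and fewer near 3, and the median log2 ratio of covered length was -0.75. Near 18 adipocyte genes there were 33 and 41, with more near 9 (50.0%) and fewer near 4, beside a median log2 ratio of -1.16. Myog, the myogenin gene, had 4 and 6 strong loci, and Lipe, the hormone-sensitive lipase gene, had 5 and 7. These counts are small. The share of genes with more strong loci in Tet1/2 cKO was also 54.2% for osteoblast and osteocyte genes, 47.8% for genes of DNA methylation and 44.1% for Bone60, against 22.0% of all genes, many of which have none. Among genes whose numbers differed, more were found in Tet1/2 cKO near 78.6% in muscle, 69.2% in adipocytes, 59.1% in osteoblasts and osteocytes and 48.2% of all genes.

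Housekeeping genes had fewer strong loci in Tet1/2 cKO. The 39 proteasome genes had a median log2 ratio of -1.24, with 30 genes (76.9%) at -1 or less, and 122 strong loci in Ctrl and 104 in Tet1/2 cKO. Ribosomal protein genes had -1.21, with 198 and 180 strong loci, and genes of mitochondrial respiratory complex I had -1.25, with 81 and 70. Psmb3, a proteasome subunit gene, had 28523 bp and 15140 bp, with 9 and 5 strong loci. Psmc5 had 11 and 7, while Psma6 had 6 and 7 and Psmb10 had 7 and 8. Genes with more and with fewer strong loci in Tet1/2 cKO numbered 9 and 18 for the proteasome, 26 and 27 for ribosomal proteins and 10 and 13 for complex I. Olfactory receptor, vomeronasal receptor and defensin genes, families of which 14, 5 and 0 members had enough RNA to be tested (at least 10 normalised counts in 3 libraries), had a median covered length of 0 bp in both groups. Keratins had 3533 bp and 990 bp, and 9 of the 49 had enough RNA. Summed over the genes of these 4 families, the strong loci numbered 124 in Ctrl and 200 in Tet1/2 cKO. Over the 1092 olfactory receptor genes, loci within 30 kb numbered 46 and 72. Among regulators, 39 Hox genes had a median log2 ratio of -0.87 with 28 and 27 strong loci, 365 Zfp genes had -0.88 with 480 and 464, and 20 imprinted genes had -0.57 with 39 and 35.

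**Figure D5:**
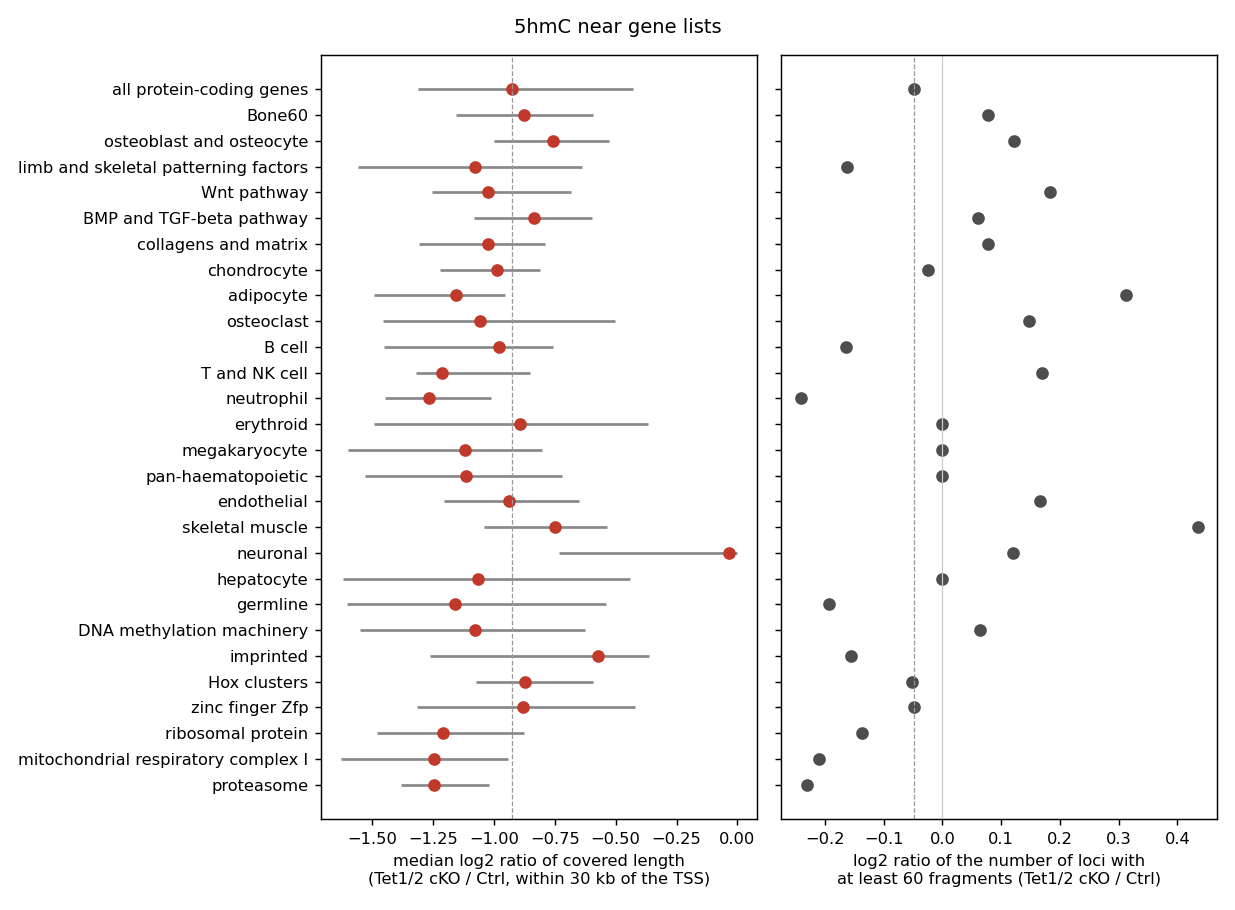
Left, the median log2 ratio of the length covered within 30 kb of the TSS (points) with lines from the 25th to the 75th percentile of the genes for all protein-coding genes and 27 gene lists. Right, the log2 ratio of the number of loci with at least 60 fragments. Dashed lines mark all genes, at -0.92 on the left, and the lists lie on both sides of them.

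The genes of DNA methylation and its removal were covered as a list of 23. Their median log2 ratio was -1.08, 13 (56.5%) were at -1 or less, and strong loci were 67 in Ctrl and 70 in Tet1/2 cKO. Tet1 itself had 6414 bp covered in Ctrl and 1723 bp in Tet1/2 cKO, with 1 strong locus and 0, and the peak 14806 bp upstream of its TSS, at chr10:62923379-62924825, had 60 fragments in Ctrl and 54 in Tet1/2 cKO. Tet2 had 16956 bp and 10531 bp, with 4 and 5 strong loci. Its intronic peak 9397 bp downstream of the TSS had 92 fragments in Ctrl and 118 in Tet1/2 cKO, and another, 26853 bp downstream, had 103 and 88. Tet3 had 30238 bp and 20512 bp, with 7 and 8 strong loci. The de novo methyltransferase gene Dnmt3a had 24364 bp and 20211 bp, while the maintenance methyltransferase gene Dnmt1 had 15248 bp and 4210 bp. Uhrf2, which encodes a protein that binds 5hmC, had 22556 bp and 6833 bp, with 10 and 6 strong loci, and it lies on chromosome 19.

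Near the genes with the lowest ratios, among those with at least 8000 bp in Ctrl, almost no peak was left in the Tet1/2 cKO list. Bbs10, a gene of a ciliary chaperonin, had 10 peaks over 8989 bp in Ctrl and no peak in Tet1/2 cKO, a log2 ratio of -3.32, with 2 strong loci in Ctrl. Serpinc1, the antithrombin gene, had 13 peaks over 8457 bp and none, with 3 strong loci in Ctrl. Mrm2, a mitochondrial RNA methyltransferase gene, had 14 peaks over 8112 bp and none, but no strong locus in Ctrl. Fads2, a fatty acid desaturase gene on chromosome 19, had 16527 bp and 847 bp, and Fgf8, a growth factor gene of the limb bud on the same chromosome, had 18487 bp and 1594 bp, with 5 and 1 strong loci. Cebpz and Ndufaf7 share a promoter and their values of 14521 and 710 bp and of 14591 and 742 bp are 1 stretch. Mark1, Xrcc5 and Krt75 complete the 10 genes, which were picked for their ratio over peaks that were mostly weak.

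At the other end, few genes had more covered length in Tet1/2 cKO. Among genes with at least 2000 bp in either list, the highest ratios belonged to Tdpoz4 (0.96, from 1369 bp to 3596 bp) and Tdpoz3 (0.79, from 1861 bp to 3945 bp), members of a multigene family in a cluster on chromosome 3 whose copies can share reads. Col19a1, a collagen gene, followed with 0.37, from 1767 bp to 2587 bp with 2 strong loci in each group. Klk1b9 and Klk1b11, kallikrein genes of another cluster of near copies, Kcnk9, Slc35f1, Wasf3, Rhbdd1 and Arnt2 were between 0.12 and 0.29. A longer covered stretch in Tet1/2 cKO was found near 408 of the 21911 genes.

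Strong loci were also set beside the level of RNA in Ctrl femurs. Genes with a mean normalised count of 0 had 1282 strong loci in Ctrl and 1552 in Tet1/2 cKO, a ratio of 1.21, while genes with a mean of over 1000 and up to 10000 had 22896 and 21594, a ratio of 0.94. The 430 genes above 10000 had 3.91 strong loci per gene in Ctrl and 3.86 in Tet1/2 cKO, against 0.306 and 0.370 for genes without counts. Strong 5hmC thus went with RNA level in both groups, and genes without RNA had the highest ratio of Tet1/2 cKO to Ctrl.

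The number of genes that passed a test of RNA between the groups depended on the tool. With limma on log2 normalised counts in 12 femur libraries, 0 of 16780 genes (0%) passed an adjusted p of 0.05. At an unadjusted p under 0.05, 296 genes were higher and 551 lower in Tet1/2 cKO. In this fit, together these are about as many as that cutoff passes among 16780 genes when none differs, though more were lower than higher. With limma on the 6 libraries compared alone, 539 of 15970 genes were higher and 1170 lower at that unadjusted cutoff, and 0 passed the adjusted one. With edgeR on the recovered reads the adjusted count was also 0 (565 higher and 1034 lower unadjusted), and DESeq2 called 142 genes, 21 higher and 121 lower. Of the Bone60 genes, 54 of 59 had a log2 fold change below 0, with a median of -0.93, against 8519 of all 16780 genes (50.8%) with a median of -0.01. None of the 59 passed with limma, and DESeq2 called 10 of them, all lower, against 121 of 15367 genes (0.787%) called lower and 21 (0.137%) called higher. Normalised counts of Col1a1 were 387599, 415356 and 516478 in Ctrl and 112045, 247495 and 198946 in Tet1/2 cKO. The groups did not overlap for Col1a1, whose log2 fold change was -1.30 with an adjusted p of 0.723 in limma, 0.50 in edgeR and 0.0102 in DESeq2. Sp7 had 2670, 3639 and 4466 in Ctrl and 1404, 2070 and 1220 in Tet1/2 cKO, also without overlap, with a log2 fold change of -1.20 and the same 3 adjusted p-values. Both genes were among the 6 Bone60 genes with the highest ratio of covered length, and the call of their RNA depended on the tool.

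RNA of markers of other cells was read in the same libraries, and none of the markers given here passed with limma. In units of 1000, the summed normalised counts of the 21 skeletal muscle markers were 166, 605 and 699 in Ctrl and 5.43, 9.87 and 647 in Tet1/2 cKO, each in ascending order. In Tet1/2 cKO, 1 library thus lay within the Ctrl range and the other two far below it. All 21 had a log2 fold change below 0 and none was at 0. In the same units, the 20 neutrophil markers summed to 884 to 1367 in Ctrl and 1267 to 2872 in Tet1/2 cKO, which overlap, and 0 of 20 had a log2 fold change below 0. The 19 chondrocyte markers tested had a median log2 fold change of -2.44, all below 0, and their sums were 65.8 to 119 in Ctrl and 31.9 to 66.5 in Tet1/2 cKO, which overlap, with 1 marker at 0 in all 3 Tet1/2 cKO libraries. DESeq2 called 10 of the 15 chondrocyte markers it tested lower, and 0 of the muscle and neutrophil markers. For osteoblast and osteocyte markers, the check of the labelled tissue, sums were 1231 to 1564 in Ctrl and 395 to 865 in Tet1/2 cKO, without overlap, DESeq2 called 8 of the 24 lower, and none was at 0 in a group. Their part in the RNA values of bone genes and in the 5hmC lists was not tested. Grouped by the difference in strong loci, the median log2 fold change of RNA was 0.07 for the 547 genes with at least 3 fewer in Tet1/2 cKO, 0.03 for the 4941 genes with an equal number and -0.16 for the 336 genes with at least 3 more, among genes with a mean of at least 100. Genes with more strong loci in Tet1/2 cKO thus had slightly lower RNA there, with 25th and 75th percentiles of -0.56 and 0.10 in the last group.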

How the data were processed

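Femur 5hmC was measured by hMeDIP-seq (paired ends of 51 bases). The authors trimmed reads with Trim Galore 0.4.3.1, mapped them to mm10 with BWA 0.7.15.1 and called peaks with MACS2 2.1.1.20160309.6 (versions from the submitters' processing notes) on the 3 pooled libraries of a group, at an FDR of 0.05. The DNA used as background is not given in the sources used here. The fold enrichment (a ratio of the pileup over the local background, each with 1 added), the -log10 p and -log10 q, and the distance of the summit from the peak start are as deposited by the authors. The RNA-seq signal consists of gene counts that the authors made with STAR 2.6.0b-1 and featureCounts 1.6.3 and divided by DESeq2 size factors before they were deposited.

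From fold and p, the pileup and the background of each peak were solved, and fragments are the pileup divided by its step (percent whole within 0.02: 99.9 in Ctrl and 100 in Tet1/2 cKO). Genes and TSS were taken from GENCODE vM21 (21911 protein-coding genes). The members and lists were chosen with earlier results of these data known. Named genes are those of DNA methylation, up to 4 genes per list with the longest Ctrl covered length, the 6 lowest and 6 highest ratios of Bone60 (at least 2000 bp in Ctrl), and the 10 lowest (at least 8000 bp in Ctrl) and 10 highest (at least 2000 bp in either) of all genes. Regions are the 6 peaks of highest fold that are Ctrl only, shared or Tet1/2 cKO only. A gene is counted as lower or higher past a log2 ratio of 1, and a strong locus has at least 60 fragments, a limit set after seeing the data.

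RNA was tested with limma 3.58.1 (trend, log2 of the value plus 1, at least 10 in 3 libraries, Benjamini-Hochberg) over 12 libraries. Whole reads were recovered for the 6 libraries compared (28597536 to 49788434 reads, 100% whole) and tested with edgeR 4.0.16 and DESeq2 1.42.0 as alternatives. The paper describes the femur RNA-seq libraries as biological replicates, though the labels do not state separate animals per library. The p-values measure the spread between these samples. Steps were tested on simulated data. Other alternatives changed the window, the measure, the overlap, the thresholds and the libraries. The software was R 4.3.3 and Python 3.11.15 with pandas 2.3.3, numpy 2.4.6, numba 0.67.0, scipy 1.17.1 and matplotlib 3.10.9.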

Additional observations from a re-analysis of the deposited data

How the results depend on the processing

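The median log2 ratio of covered length near all genes, -0.92, was -0.79 with the Ctrl list rescaled, -1.14 at a -log10 q of at least 5, -0.60 in a window of 10 kb, -0.59 in the gene body, -0.70 by number of peaks, -1.07 by fold times length, -1.17 with 100 bp added and 0 by loci of at least 60 fragments. The last setting also turned the adipocyte list, from -1.16 to 0.13, the osteoblast and osteocyte list, from -0.76 to 0.18, and the skeletal muscle list, from -0.75 to 0.26, and put the other 28 of the 31 lists at 0. The share of Ctrl peaks overlapped, 46.7%, was 54.2% rescaled, 33.5% at a -log10 q of at least 5, 68.6% with equal numbers by fold, 91.3% at 60 fragments, 47.3% without chromosomes 6 and 19 and 33.8% with an overlap of at least 50% of the peak. In the same order, the share of Tet1/2 cKO peaks, 96.8%, was 93.5%, 98.1%, 82.9%, 99.5%, 96.7% and 96.1%, and the ratio of covered length, 0.450, was 0.488, 0.358, 0.582, 0.606 and 0.456 in the first 5. The settings by 60 fragments and without chromosomes were chosen after seeing the data. The rescaled setting dropped Ctrl peaks but left the ends of the others as deposited, so it does not correct covered length for the background. With promoters of 3 kb, shares in Ctrl were 7.04% for promoters, 4.01% for exons, 59.5% for introns and 13.8% within 30 kb of a gene, and 7.85%, 3.24%, 62.9% and 12.2% in Tet1/2 cKO. Rescaled, Ctrl introns held 63.8% and DNA within 30 kb and distal DNA 15.0% each. The cause of these shifts was not tested.

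The count of genes differing in RNA, 0 with limma, was 142 with DESeq2 and 0 with edgeR, with 6 libraries, with a pseudocount of 0.5, without a filter, without any 1 library in turn (0 to 0) and with the replicate block. Libraries of the same number deviated together with correlations of 0.231, -0.12 and 0.17, so the numbers were not taken as pairs, and the replicate block, which lowered the count at an unadjusted p under 0.05 from 551 to 442 lower genes, changed no call.

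Without replicate lists, no error can be given for any 5hmC value, and the lowest peak of 32 fragments in Tet1/2 cKO against 21 in Ctrl limits what can be said of weak 5hmC. A peak missing from a list was not detectable at that threshold, which does not show that 5hmC was absent.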
